A study of Mus musculus with 30 samples.

Results

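The genes described here are 10 regulators and effectors of the ATF4 and CHOP stress pathway, taken as the rows of the counts table whose mouse Ensembl identifier (GRCm38) carries the symbol *Atf4*, *Ddit3*, *Atf3*, *Atf5*, *Cebpb*, *Cebpg*, *Trib3*, *Nupr1*, *Chac1* or *Ddit4*. They are 10 of the 54532 genes in the table. A second Ensembl identifier with the symbol *Ddit3* was also listed, and its count was 0 in every library. Murine erythroleukemia (MEL) cells are a mouse line that turns toward red cells and makes hemoglobin when grown with DMSO. Transcripts of WT and Abcb10-null cells were sequenced at day 0, before any DMSO, and at days 2 and 5 of differentiation in 1.5% DMSO. Each of the 6 groups had 5 libraries, which makes 30. The Abcb10-null cells, labelled as an *Abcb10* knockout, were grown from a single CRISPR/Cas9 clone of MEL DS19 cells, so that the genotype and the clone cannot be told apart. The libraries are labelled as biological replicates, and nothing in the labels says which shared a culture or a day.

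When a cell lacks amino acids or heme, or misfolds protein in the endoplasmic reticulum (ER) or mitochondria, a kinase phosphorylates the translation factor eIF2. General translation then falls, while translation of the *Atf4* transcript rises. ATF4 is a transcription factor of the bZIP family, pairs with C/EBP proteins on DNA, and raises genes for amino acid synthesis and import, for tRNA charging, and for further regulators such as CHOP (the product of *Ddit3*), ATF3 and the pseudokinase TRIB3. In red cell precursors the heme-regulated kinase HRI couples this pathway to heme supply. ATF4 is controlled largely at translation, and the values here are transcript levels.

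The C/EBP-ATF composite element, the DNA site on which ATF4 pairs with a C/EBP protein, has the core TGATGNAA. It was searched on both strands of the RefSeq promoter windows (GRCm38.p6, 250 bases before to 50 after each start), which were found for all 10 genes. The windows of *Atf3*, *Chac1*, *Trib3* and *Nupr1* held 1 match each, 4 of 10 genes (40%), beside 4.51% of the 27025 genes with a window. These matches are printed because, with all libraries, the 4 genes had the largest differences between genotypes at day 5. At day 2, *Ddit3* (log2 fold change 2.75), which had no match, exceeded *Nupr1* (2.30). Without WT day 5 replicate 5, *Atf5* (2.96) and *Cebpb* (2.87), which had no match, exceeded *Atf3* (2.70) and *Nupr1* (2.601) in log2 fold change. Each fragment reads 5′ to 3′ on the strand of the gene with 10 bases on either side of the match, and the capitals mark the match, which read TGATGNAA on the opposite strand.
Atf3: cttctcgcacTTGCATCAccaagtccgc
Chac1: ttccctgccgTTGCATCActcctgccag
Trib3: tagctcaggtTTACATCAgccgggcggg
Nupr1: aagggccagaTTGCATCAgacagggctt

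The fragments lie at chr1:191183426-191183453 for *Atf3*, chr2:119351039-119351066 for *Chac1*, chr2:152344029-152344056 for *Trib3* and chr7:126625563-126625590 for *Nupr1*. *Chac1* is on the plus strand and the other 3 genes are on the minus strand. The match began 110 bases upstream of the start in *Atf3* and in *Nupr1* and 193 bases upstream in *Chac1*, and in *Trib3* it began 14 bases past the start. The capitals were the same in *Atf3*, *Chac1* and *Nupr1* and differed in *Trib3* at the free position N of the core. The cyclic AMP response element TGACGTCA, a palindrome that ATF and CREB proteins bind, was in none of the 10 windows, beside 2.03% of all genes with a window. A match is a description of these letters and not a measured binding site.

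The libraries held 9906783 to 20157768 counts each, with a median of 16492116.5. *Abcb10*, the targeted gene, had transcripts in all 30 libraries and was lower in every Abcb10-null library than in every WT library of the same day. Markers were checked against the erythroid label: 18 of 19 erythroid genes averaged over 1 CPM in WT cells at day 0, and their summed level was 3163 to 3370 CPM per library there and 14658 to 26686 CPM at day 5. Macrophage and granulocyte genes summed to at most 17.04 CPM, lymphocyte genes to at most 7.79 CPM and fibroblast and endothelial genes to at most 17.1 CPM in any library. The last 2 maxima were both in Abcb10-null day 5 replicate 4, the library with the fewest counts. The next highest libraries held 2.51 and 7.33 CPM. Levels are in CPM, a gene's counts scaled to the size of its library with TMM factors, and a gene was called changed when its edgeR quasi-likelihood p, adjusted by Benjamini-Hochberg over all genes tested, was under 0.05.

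A pair of libraries stood apart for these genes. Replicate 2 of Abcb10-null day 2 was the lowest of its group for 10 of the 10 genes, and replicate 5 of WT day 5 was the highest of its group for 9 of 10, the exception being *Ddit4*. *Abcb10* in those libraries was 166 CPM, within the 162 to 312 CPM of Abcb10-null day 2, and 1264 CPM, the highest of WT day 5, so both lay on the side of their label. The summed erythroid markers were the lowest of the group in both, with 3587 CPM beside 3740 to 5102 CPM in the other Abcb10-null day 2 libraries and 14658 CPM beside 24483 to 26686 CPM in the other WT day 5 libraries. The mean of the erythroid markers was tested against *Atf4* within groups below. The part of marker levels in the differences between genotypes was not tested. Library totals were 18222549 and 15201583 counts. Both libraries were picked out by these same 10 genes. Leaving out the lowest Abcb10-null or the highest WT library widens the difference between genotypes by construction. It likewise raises the Abcb10-null level at day 2 and lowers the WT level at day 5 against day 0, which widens the interaction. Values without them show how much 1 library weighs and are no separate support.

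**Figure D1:**
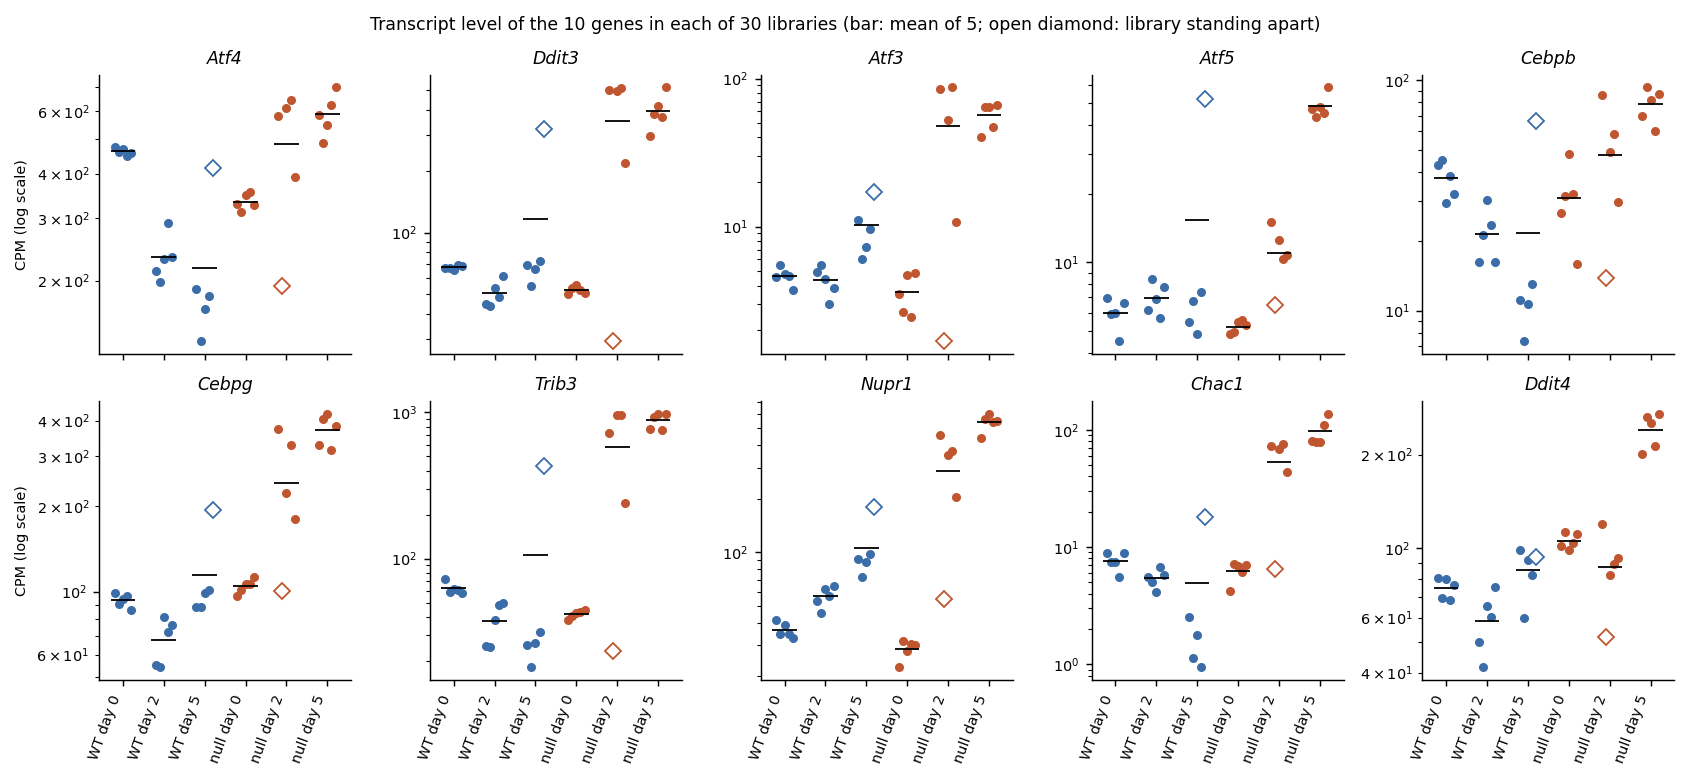
Transcript level in CPM (log axis) of each gene in each of the 30 libraries, by group (WT in blue, Abcb10-null in red, "null" on the axis). Horizontal bars are means of 5 libraries, and open diamonds mark Abcb10-null day 2 replicate 2 and WT day 5 replicate 5. At day 5 all 5 Abcb10-null libraries lie above the 4 other WT libraries for every gene.

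*Atf4* (ENSMUSG00000042406, chromosome 15, 80255184 to 80257541 on GRCm38) encodes the central transcription factor of the pathway. Replicates 1 to 5 of WT cells held 476, 459.9, 470.0, 449 and 456 CPM at day 0, 213, 198, 230.3, 291 and 233 CPM at day 2 and 189, 135, 166, 181 and 416 CPM at day 5. Abcb10-null cells held 328, 312, 347, 355 and 326 CPM at day 0, 581, 193, 611, 644 and 390.0 CPM at day 2 and 585, 488, 547, 622 and 699.9 CPM at day 5. The genotypes did not overlap at day 0, where Abcb10-null cells were the lower, nor at day 5, where they were the higher. Means were 462 ± 11.04, 233 ± 35.5 and 218 ± 113 CPM for WT at days 0, 2 and 5 (SD, n = 5), and 334 ± 17.4, 484 ± 190.0 and 588 ± 79.6 CPM for Abcb10-null. Relative to WT, the Abcb10-null level differed on the log2 scale by -0.48 (standard error 0.053, adjusted p = 1.44e-06) at day 0, 1.00 (standard error 0.26, adjusted p = 0.012) at day 2 and 1.43 (standard error 0.25, adjusted p = 0.000752) at day 5 by edgeR. Without the library that stood apart, it was 1.20 at day 2 and 1.79 at day 5. Each library is bulk RNA, in which fewer cells that express a gene and less of its RNA per cell cannot be told apart.

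*Atf5* (ENSMUSG00000038539) encodes a bZIP factor related to ATF4 that takes part in the stress response of mitochondria. WT libraries held 6.97, 5.91, 5.99, 4.50 and 6.60 CPM at day 0, 6.15, 8.45, 6.87, 5.68 and 7.80 CPM at day 2 and 5.47, 6.77, 4.82, 7.38 and 52.2 CPM at day 5. The Abcb10-null values were 4.82, 4.91, 5.45, 5.57 and 5.28 CPM at day 0, 15.1, 6.49, 12.5, 10.3 and 10.7 CPM at day 2 and 47.2, 43.6, 48.0, 45.3 and 58.9 CPM at day 5. At day 5 a single WT library, replicate 5, reached the Abcb10-null range, and the other 4 were at about the level of day 0. The log2 fold change between genotypes was 0.60 (standard error 0.23, adjusted p = 0.0569) at day 2 by edgeR, which missed the threshold, and 1.66 (standard error 0.56, adjusted p = 0.0327) at day 5. Without Abcb10-null replicate 2 the day 2 value was 0.74 (adjusted p = 0.00981). The day 5 value was 2.96 (adjusted p = 1.6e-07) without WT replicate 5, and it lost the threshold in 8 of the 10 fits that each left out 1 library. *Atf5* shares 4.11% of its exon bases with *Il4i1* and *Nup62* on the opposite strand, and the strand setting of the counting is not given in the sources used here.

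*Ddit3* (ENSMUSG00000025408, chromosome 10, 127290774 to 127296288 on GRCm38) encodes CHOP, a bZIP factor that pairs with C/EBP proteins and is known for its part in cell death under lasting stress. In WT cells the 5 libraries held 67.2, 67.4, 65.4, 69.3 and 68.6 CPM at day 0, 44.5, 43.8, 53.7, 48.0 and 61.4 CPM at day 2 and 69.3, 54.7, 66.3, 72.6 and 321 CPM at day 5. In Abcb10-null cells they held 49.7, 53.4, 55.4, 52.3 and 50.8 CPM at day 0, 504, 29.3, 497, 515 and 219 CPM at day 2 and 298, 382, 417, 369 and 518 CPM at day 5. The Abcb10-null day 2 libraries thus spanned 17.5-fold, with replicates 1, 3 and 4 together at the top, replicate 5 between, and replicate 2 below all WT libraries of that day. The log2 fold change between genotypes was -0.38 (standard error 0.061, adjusted p = 0.000108) at day 0, 2.75 (standard error 0.53, adjusted p = 0.00421) at day 2 and 1.77 (standard error 0.43, adjusted p = 0.00604) at day 5 by edgeR. It was 3.05 at day 2 without Abcb10-null replicate 2 and 2.58 at day 5 without WT replicate 5. Of its exon bases, 6.13% are shared with the second *Ddit3* identifier on the same strand and 3.97% with *Mars* on the opposite strand.

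*Atf3* (ENSMUSG00000026628) encodes a bZIP factor that is induced by many stresses. WT cells had 4.59, 5.47, 4.77, 4.65 and 3.73 CPM at day 0, 4.94, 5.49, 4.40, 2.99 and 3.82 CPM at day 2 and 11.2, 6.01, 7.33, 9.69 and 17.1 CPM at day 5. Abcb10-null cells had 3.49, 2.66, 4.73, 2.43 and 4.87 CPM at day 0, 85.5, 1.68, 52.3, 87.4 and 10.7 CPM at day 2 and 40.6, 64.2, 64.5, 47.3 and 65.9 CPM at day 5. The spread within Abcb10-null day 2 was 51.9-fold, the widest of the 10 genes in any group, and replicate 2 was again under every WT library. Between genotypes the log2 fold change was -0.35 (standard error 0.20, adjusted p = 0.188) at day 0 by edgeR, not called, then 3.39 (standard error 0.74, adjusted p = 0.00656) at day 2 and 2.45 (standard error 0.25, adjusted p = 1.84e-05) at day 5. Leaving out the library that stood apart gave 3.71 and 2.70.

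*Cebpb* and *Cebpg* encode C/EBPβ and C/EBPγ, partners of ATF4 and CHOP on DNA. For *Cebpb* (ENSMUSG00000056501), WT libraries held 42.8, 45.2, 29.4, 38.4 and 31.9 CPM at day 0, 16.2, 21.2, 30.3, 23.5 and 16.3 CPM at day 2 and 11.1, 7.38, 10.7, 13.1 and 66.6 CPM at day 5, and Abcb10-null libraries held 26.4, 31.5, 48.0, 32.0 and 15.98, then 86.5, 13.9, 48.9, 58.5 and 29.6, then 69.9, 93.1, 81.6, 60.0 and 87.5 CPM. The genotypes overlapped at every day, at day 5 through WT replicate 5 alone. Abcb10-null exceeded WT by a log2 fold change of 1.09 (standard error 0.37, adjusted p = 0.0377) at day 2 and 1.85 (standard error 0.49, adjusted p = 0.0106) at day 5 by edgeR. The day 2 call was lost in 7 of the 10 fits that each left out 1 library, and the value was 1.32 without Abcb10-null replicate 2. The day 5 value was 2.87 without WT replicate 5. *Cebpb* shares 20.7% of its exon bases with *Tmem189* on the opposite strand.

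For *Cebpg* (ENSMUSG00000056216), WT libraries held 98.9, 90.3, 93.9, 96.7 and 86.1 CPM at day 0, 55.0, 54.1, 81.1, 72.1 and 76.3 CPM at day 2 and 88.2, 88.3, 99.0, 101 and 193 CPM at day 5. Abcb10-null libraries held 96.3, 102, 106, 106 and 113 CPM, 373, 100.3, 222, 329 and 179.9 CPM and 329, 405, 423, 314 and 383 CPM on the same days. *Cebpg* was the only one of the 10 genes whose genotypes did not overlap at day 2, and even replicate 2 of Abcb10-null lay above the highest WT library. The share of all genes without overlap at day 2 was not counted. The log2 fold change of *Cebpg* between genotypes was 1.78 (standard error 0.28, adjusted p = 0.00217) at day 2 and 1.70 (standard error 0.20, adjusted p = 5.43e-05) at day 5 by edgeR, with 0.16 (adjusted p = 0.0536) at day 0. It was 1.97 at day 2 and 1.96 at day 5 without the library that stood apart.

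*Trib3* (ENSMUSG00000032715, chromosome 2, 152337422 to 152344032 on GRCm38) encodes a pseudokinase that is induced by ATF4 and CHOP and in turn restrains them. WT replicates 1 to 5 held 73.0, 59.4, 61.7, 61.1 and 57.9 CPM at day 0, 25.4, 24.9, 38.2, 48.3 and 49.9 CPM at day 2 and 25.5, 18.03, 26.3, 31.5 and 429.7 CPM at day 5. Their Abcb10-null counterparts held 37.9, 40.5, 42.5, 43.0 and 44.5 CPM at day 0, 728, 23.2, 964, 960.0 and 242 CPM at day 2 and 771, 926, 982, 753 and 977 CPM at day 5. All Abcb10-null day 5 libraries lay far above the others of WT day 5 and above its replicate 5 as well. Between genotypes *Trib3* had log2 fold changes of -0.60 (standard error 0.074, adjusted p = 4.93e-06) at day 0, 3.91 (standard error 0.70, adjusted p = 0.00324) at day 2 and 3.07 (standard error 0.79, adjusted p = 0.00894) at day 5 by edgeR. One library weighed on the day 5 value, which was 5.10 (adjusted p = 1.22e-08) without WT replicate 5, and the day 2 value was 4.23 without Abcb10-null replicate 2.

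*Chac1* (ENSMUSG00000027313) encodes a glutathione-degrading enzyme and is a known target of ATF4. It held 8.90, 7.52, 7.38, 5.59 and 8.84 CPM in WT cells at day 0, 5.54, 5.02, 4.14, 6.71 and 5.76 CPM at day 2 and 2.55, 1.14, 1.76, 0.940 and 18.2 CPM at day 5. It held 4.18, 7.17, 6.90, 6.08 and 7.02 CPM in Abcb10-null cells at day 0, 72.0, 6.44, 68.0, 74.8 and 43.9 CPM at day 2 and 80.3, 78.1, 78.1, 110.5 and 137 CPM at day 5. The log2 fold change between genotypes was 3.23 (standard error 0.48, adjusted p = 0.00155) at day 2 and 4.27 (standard error 0.66, adjusted p = 0.000365) at day 5 by edgeR, the latter the largest of the 10 genes at that day, and at day 0 it was -0.30 (adjusted p = 0.171). The day 2 value was 3.52 without Abcb10-null replicate 2, and the day 5 value was 5.90 without WT replicate 5.

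*Nupr1* (ENSMUSG00000030717) encodes a small stress-induced nuclear protein. WT libraries held 41.4, 34.5, 39.1, 34.4 and 32.9 CPM at day 0, 53.2, 45.6, 62.5, 56.6 and 64.7 CPM at day 2 and 92.2, 73.0, 88.3, 97.8 and 179 CPM at day 5. Abcb10-null libraries held 22.4, 31.7, 27.6, 30.4 and 29.9 CPM at day 0, 459, 54.5, 352, 373 and 204 CPM at day 2 and 439.6, 563, 604, 544 and 551 CPM at day 5. The mean of *Nupr1* was higher on each later day in both genotypes. The log2 fold change between genotypes was -0.37 (standard error 0.094, adjusted p = 0.00485) at day 0, 2.30 (standard error 0.40, adjusted p = 0.00306) at day 2 and 2.35 (standard error 0.21, adjusted p = 6.59e-06) at day 5 by edgeR, and 2.57 and 2.601 without the library that stood apart.

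*Ddit4* (ENSMUSG00000020108) encodes REDD1, an inhibitor of the growth kinase complex mTORC1 that is induced by hypoxia and glucocorticoids as well as by ATF4. WT libraries held 80.5, 69.2, 80.0, 68.1 and 76.6 CPM at day 0, 50.1, 41.5, 65.3, 60.3 and 75.4 CPM at day 2 and 99.0, 59.9, 91.9, 82.2 and 94.1 CPM at day 5. The corresponding Abcb10-null values were 102, 113, 98.6, 104 and 112, then 120.1, 51.9, 82.2, 89.4 and 93.1, then 201, 264, 253, 213 and 271 CPM. *Ddit4* followed another course: it was already higher in Abcb10-null cells at day 0, overlapped at day 2 through Abcb10-null replicate 2 alone, and was higher again at day 5, where WT replicate 5 lay within its group. Its log2 fold change between genotypes was 0.49 (standard error 0.068, adjusted p = 1.73e-05) at day 0, 0.53 (standard error 0.20, adjusted p = 0.0588) at day 2, not called, and 1.49 (standard error 0.14, adjusted p = 1.07e-05) at day 5 by edgeR. The day 2 value was 0.67 (adjusted p = 0.0072) without Abcb10-null replicate 2, and it passed the threshold in 4 of 7 other settings. At day 5 it was 1.51 without WT replicate 5.

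Before differentiation most of the called genes were lower in the Abcb10-null cells. At day 0, 5 of the 10 genes were called, 4 lower (*Atf4*, *Ddit3*, *Trib3* and *Nupr1*) and 1 higher (*Ddit4*), beside 16.2% lower and 19.7% higher of the 12912 genes tested. The median log2 fold change of the 10 genes was -0.32, beside -0.0019 for all genes tested. In a single fit of all 30 libraries, which share one estimate of the spread, the 4 lower calls were lost and *Ddit4* alone was called at day 0. At day 2, 8 were higher and 0 lower, with 14.9% higher and 16.9% lower among all 13053 genes tested. The median was then 2.04, and *Atf5* and *Ddit4* were not called. At day 5 all 10 were called higher and 0 lower, beside 19.8% higher and 17.8% lower of 12676 genes tested, with a median of 1.81. For 7 of the 10 genes, each Abcb10-null library lay above each WT library at day 5, beside 13.5% of all genes tested. The other 3, *Ddit3*, *Atf5* and *Cebpb*, overlapped through WT replicate 5 alone. With Abcb10-null replicate 2 left out, 10 genes were called at day 2, and with WT replicate 5 left out 10 were called at day 5. Over all fits that left out 1 library, 7 to 10 were called at day 2 and 9 to 10 at day 5.

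**Figure D2:**
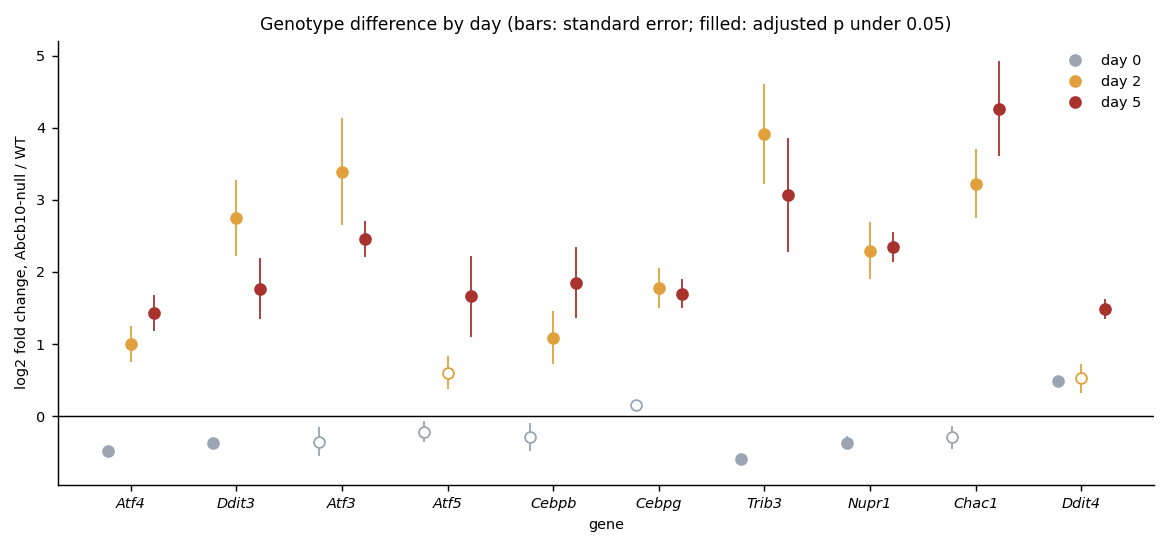
Difference between genotypes (log2 fold change, Abcb10-null over WT) for each gene at days 0, 2 and 5 (10 libraries per day, edgeR), with standard errors as bars and filled points where the adjusted p was under 0.05. Of the 10 genes, 4 are called lower at day 0 and all are called higher at day 5, and *Ddit4* is called higher at day 0 too.

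Within WT cells the regulators mostly fell in the first 2 days of DMSO. Of the 10 genes, 7 were lower and 1 higher (*Nupr1*) at day 2 than at day 0, beside 30.7% lower and 31.5% higher of all genes tested, with a median log2 fold change of -0.44. *Atf4* fell by 0.99 on the log2 scale (standard error 0.099, edgeR adjusted p = 2.88e-06), *Cebpb* changed by -0.80 (adjusted p = 0.00179) and *Nupr1* rose by 0.63 (adjusted p = 0.000264). Neither *Atf3* (-0.10) nor *Atf5* (0.22) was called. In the fit of all 30 libraries *Atf4* alone of the 10 was called in this comparison.

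At day 5 the WT comparison with day 0 turned on replicate 5. With all libraries 3 genes were called: *Atf4* lower at -1.09 (standard error 0.24, adjusted p = 0.00108), and *Atf3* and *Nupr1* higher at 1.14 and 1.54 by edgeR, beside 34.7% lower and 36.5% higher of all genes tested. Without replicate 5 there were 6, while calls over all genes rose from 9065 to 9609. Replicate 5 was picked out as the highest for most of these genes, so leaving it out lowers their WT day 5 level by construction. The values without it show its weight and are no separate support. *Trib3* moved from 0.75 (adjusted p = 0.378) to -1.31 (adjusted p = 2.43e-06), *Chac1* from -0.62 to -2.26 (adjusted p = 1.05e-05) and *Cebpb* from -0.78 to -1.83 (adjusted p = 9.9e-07). *Ddit3* moved from 0.78 to -0.04 and was called in neither. Leaving out WT day 5 replicate 2 also gave 6 calls.

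Within Abcb10-null cells, 7 genes were higher at day 2 than at day 0 and 0 lower, beside 23.1% higher and 20.1% lower of all genes tested. *Trib3* rose by 3.83 (standard error 0.67, adjusted p = 0.000528), *Atf3* by 3.72, *Nupr1* by 3.36, *Chac1* by 3.10 and *Ddit3* by 2.77 on the log2 scale by edgeR. *Atf4* itself was not called at 0.56 (standard error 0.24, adjusted p = 0.0735), nor were *Cebpb* (0.64) and *Ddit4* (-0.25). Without replicate 2, *Atf4* was at 0.77 (adjusted p = 0.00025) and *Cebpb* at 0.89 (adjusted p = 0.0211), and 9 genes were called. Calls over all genes rose from 5582 to 6366 in that fit. Replicate 2 was picked out as the lowest for these genes, so leaving it out raises their day 2 level by construction.

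By day 5 all 10 genes were higher in Abcb10-null cells than at day 0 and 0 were lower, beside 33.9% higher and 33.3% lower of all genes tested. Every day 5 library lay above every day 0 library for all 10, beside 26.6% of genes tested. *Trib3* rose by 4.41 (standard error 0.11, adjusted p = 5.51e-14) and *Nupr1* by 4.26 (standard error 0.11, adjusted p = 1.82e-13) on the log2 scale by edgeR, folds of 21.3 and 19.1. *Atf3*, *Chac1*, *Atf5* and *Ddit3* followed with 3.96, 3.95, 3.23 and 2.93, then *Cebpg* with 1.83, *Cebpb* with 1.36 and *Ddit4* with 1.19. *Atf4* had the smallest change of the 10, 0.82 (standard error 0.091, adjusted p = 7.47e-07). Neither library that stood apart enters this comparison, and all 10 were called in each fit that left out 1 library.

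The difference between the genotypes' courses was tested as an interaction, the change from day 0 in Abcb10-null cells less that in WT cells. It was positive and called for 9 genes at day 2 and for 0 in the other direction, beside 12% positive and 10.8% negative of 13980 genes tested. *Ddit4* was the exception, at 0.08 (standard error 0.23, adjusted p = 0.821) by edgeR. Without Abcb10-null day 2 replicate 2 the same 9 genes were called, from 1.00 for *Atf5* to 4.86 for *Trib3*, and *Ddit4* was at 0.21 (adjusted p = 0.379). Calls over all genes rose from 3188 to 4760 in that fit. At day 5 the interaction was positive and called for all 10, with 0 negative, beside 16.8% positive and 14.7% negative of 14020 genes tested. The largest at day 5 were *Chac1* at 4.56 (standard error 0.68, adjusted p = 2.28e-05) and *Trib3* at 3.67, and the smallest was *Ddit4* at 1.01. *Atf4* was at 1.52 (standard error 0.28, adjusted p = 0.000987) at day 2 and 1.92 (standard error 0.27, adjusted p = 9.58e-06) at day 5. The day 5 interaction was called for 9 or 10 genes in each fit that left out 1 library, with *Atf5* at 3.20 and *Trib3* at 5.72 without WT day 5 replicate 5.

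Per kilobase of exon the order of the 10 genes changed. In WT cells at day 0 *Atf4* stood first with 196 ± 4.68 CPM per kilobase (SD, n = 5), followed by *Ddit4* with 42.7 ± 3.36 and *Ddit3* with 39.5 ± 0.871, which lay within the SD of *Ddit4*, and then *Trib3* with 29.5 ± 2.83. *Atf3* was last with 2.16 ± 0.288. In Abcb10-null cells at day 5 *Trib3* stood first with 415 ± 52.6 CPM per kilobase. *Atf4* with 249 ± 33.8, *Ddit3* with 232 ± 46.8 and *Nupr1* with 215 ± 24.3 came next, each within 1 SD of its neighbour in that order, and *Atf5* was last with 24.4 ± 3.01.

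**Figure D3:**
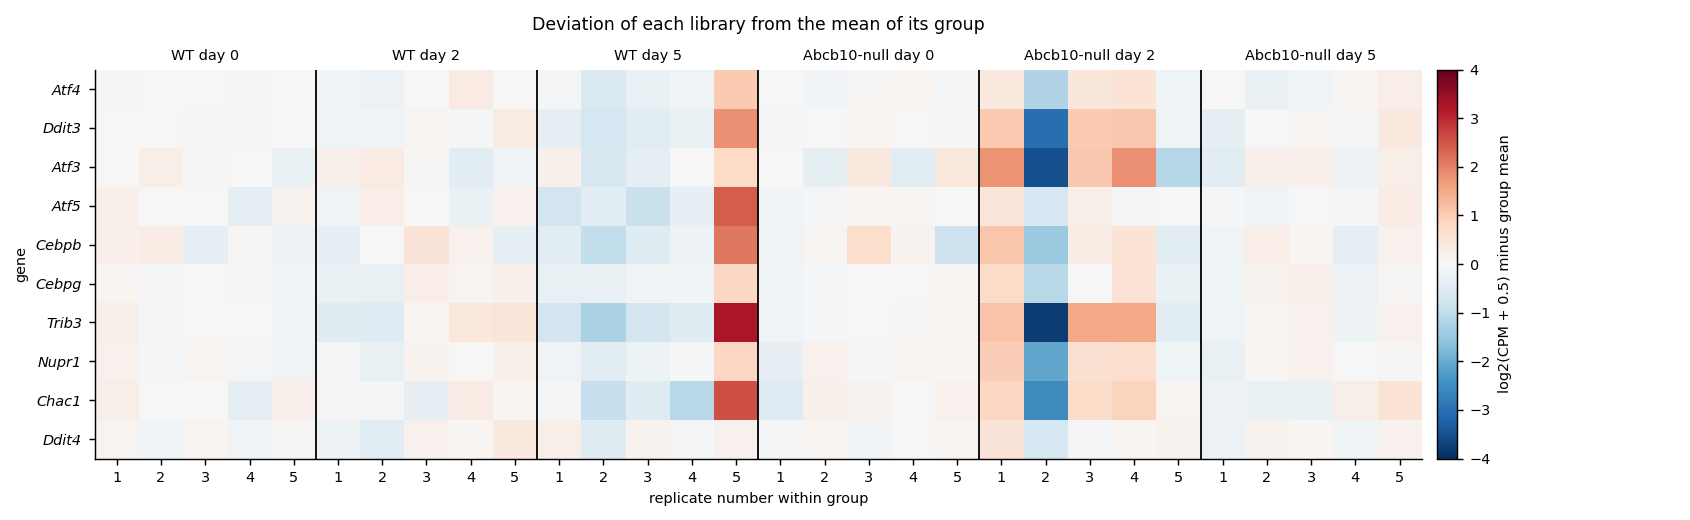
Deviation of each library from the mean of its group on the log2(CPM + 0.5) scale (color), with the 10 genes in rows and the 30 libraries in columns by group and replicate number. Abcb10-null day 2 replicate 2 is low in all rows, with *Trib3* lowest at -3.80, and WT day 5 replicate 5 is the highest of its group in 9 of 10, with *Trib3* highest at 3.27.

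The genes also moved together among libraries of the same group, less so without the libraries that stood apart. For each library the deviation of log2(CPM + 0.5) from its group mean was taken, and the deviations of *Atf4* were correlated with those of the 9 other genes, of the mean of the erythroid markers and of the library total, 11 relations in all, with 100000 permutations within groups (two-sided). Over 30 libraries, *Trib3* gave Pearson's r = 0.96 (permutation p = 6e-05, adjusted p = 0.000605) and Spearman's rho = 0.78 (permutation p = 0.00130, adjusted p = 0.00715). *Ddit3* gave r = 0.93 (permutation p = 0.000520, adjusted p = 0.00191) and rho = 0.70 (permutation p = 0.00444, adjusted p = 0.0115). *Chac1* gave r = 0.93 (permutation p = 0.000110, adjusted p = 0.000605) and rho = 0.78 (permutation p = 0.000120, adjusted p = 0.00132). These were the strongest of the 9 genes.

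The 6 other genes gave *r* of 0.87 for *Nupr1*, 0.84 for *Cebpg*, 0.83 for *Cebpb*, 0.77 for *Atf3*, 0.72 for *Atf5* and 0.59 for *Ddit4*, with permutation p from 0.00116 to 0.0265 and adjusted p from 0.00319 to 0.0324. Their rho ran from 0.29 (permutation p = 0.187, adjusted p = 0.205) for *Ddit4* and 0.43 (permutation p = 0.0602, adjusted p = 0.0828) for *Atf3* to 0.68 (permutation p = 0.00294, adjusted p = 0.0108) for *Nupr1*. Library total gave r = 0.10 (permutation p = 0.530, adjusted p = 0.530), and the erythroid mean gave r = -0.16 (permutation p = 0.475, adjusted p = 0.522). So 9 of the 11 relations passed on Pearson's r. As a description, among 14701 genes the share with a within-group r to *Atf4* at least as high was 0.0068% at *Trib3*, 0.034% at *Ddit3*, 0.0408% at *Chac1* and 9.31% at *Ddit4*. These shares include the libraries that stood apart and were not taken without them.

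The libraries that stood apart were also the 2 farthest from the median of *Atf4*, with deviations of -1.20 and 1.05 on the log2 scale. Without both, r was 0.78 for *Trib3* (permutation p = 0.00222, adjusted p = 0.0179) and 0.61 for *Chac1* (permutation p = 0.00325, adjusted p = 0.0179), and these 2 relations passed. *Ddit3* stood at the threshold with r = 0.71 (permutation p = 0.0141, adjusted p = 0.0518), and *Nupr1* had r = 0.59 (adjusted permutation p = 0.0860). *Atf3* at 0.50, *Cebpg* at 0.46, *Cebpb* at 0.43, *Ddit4* at 0.32 and *Atf5* at 0.05 did not pass either. Without those libraries r was lower for all 9 genes. On Spearman's rho over all 30 libraries, *Cebpb* (0.66, adjusted permutation p = 0.0115), *Cebpg* (0.61, adjusted permutation p = 0.0134) and *Atf5* (0.60, adjusted permutation p = 0.0152) passed. *Atf3* and *Ddit4* did not. Leaving out Abcb10-null day 2 replicate 2 alone kept 7 of the 9 genes under 0.05, and the erythroid mean then had r = -0.54 (adjusted permutation p = 0.0157). Leaving out WT day 5 replicate 5 alone kept 8 of the 9 genes.

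**Figure D4:**
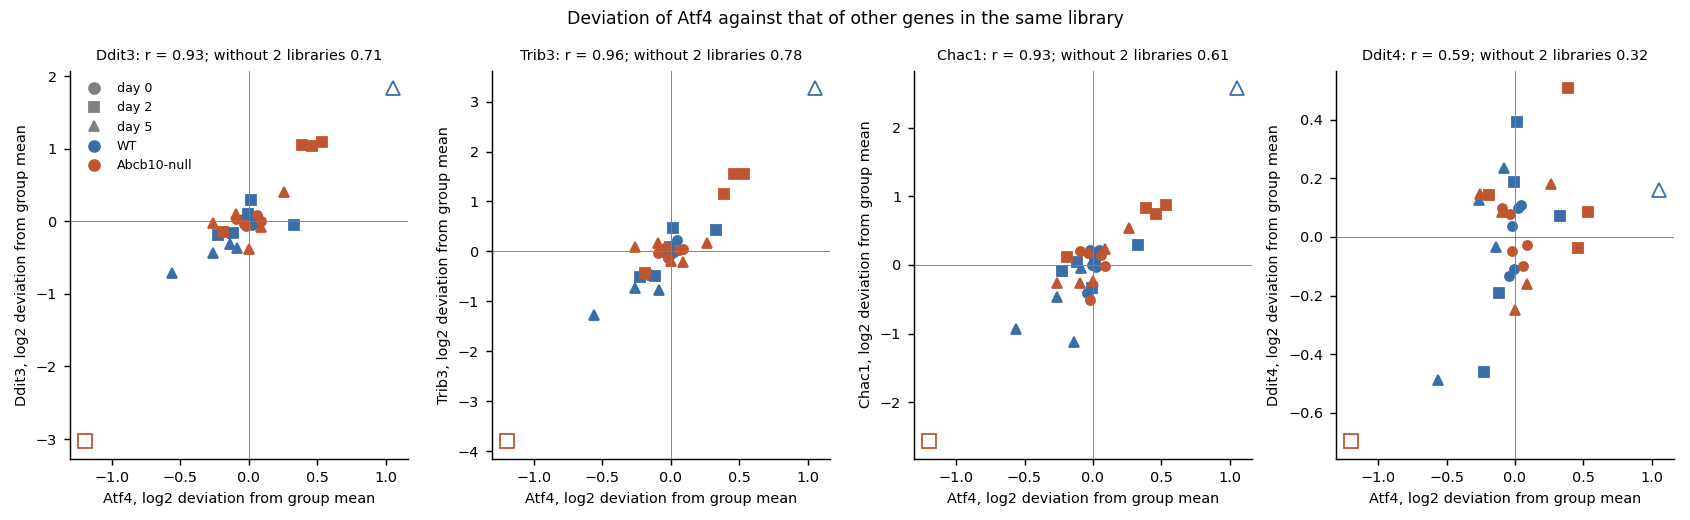
Deviation from the group mean on the log2(CPM + 0.5) scale of *Ddit3*, *Trib3*, *Chac1* and *Ddit4* against that of *Atf4*, with 1 point per library (30 libraries; circles day 0, squares day 2, triangles day 5; WT blue, Abcb10-null red). The large open symbols are the 2 libraries farthest from the median of *Atf4*, and r over all libraries and without them is 0.96 and 0.78 for *Trib3* and 0.59 and 0.32 for *Ddit4*.

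Over all 30 libraries, and so with the group differences included, the genes outside the list most like *Atf4* by Pearson's r of log2(CPM + 0.5), among 9710 genes with a mean of at least 5 CPM, were *Sars* (0.966), *Mthfd2* (0.959), *Jdp2* (0.948), *Got1* (0.945) and *Herpud1* (0.942). *Sars* charges serine tRNA and *Mthfd2* is an enzyme of mitochondrial folate metabolism. Those most like *Ddit3* were *Osbpl2* (0.956), *Gch1* (0.949), *Prkab1* (0.942), *Otub2* (0.941) and *Nfe2l1* (0.941). Of the 10 genes themselves, *Trib3* stood first among all genes for *Ddit3* (0.973) and *Atf3* at rank 3 (0.956), while *Ddit3* was at rank 371 for *Atf4* (0.741). *Cebpb* was closest to *Atf4* among the 10, at rank 24 (0.905).

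Of 31 listed targets of ATF4, 29 were tested, and *Vldlr* and *Fgf21* were too low. At day 0, 19 were lower and 2 higher in Abcb10-null cells (median log2 fold change -0.30), at day 2, 23 were higher and 0 lower (median 1.03), and at day 5 all 29 tested were higher (median 1.84), beside the shares for all genes given above. In the fit of all 30 libraries the day 0 counts were 1 lower and 0 higher. Leaving out Abcb10-null replicate 2 gave 25 higher at day 2, and leaving out WT replicate 5 gave 29 at day 5. *Slc7a11*, the cystine importer, was highest at 3.31 (standard error 0.42, adjusted p = 8.88e-05) by edgeR at day 5, then *Stc2*, a secreted glycoprotein, at 3.13 and *Jdp2*, a bZIP repressor, at 3.09. *Asns*, asparagine synthetase, changed by -0.48, 0.89 and 1.52 (standard error 0.27, adjusted p = 0.000936) at days 0, 2 and 5 by edgeR. The summed level of the 31 targets in the Abcb10-null day 2 libraries was 12682, 4591, 10012, 12343 and 6270.3 CPM in replicates 1 to 5, beside 4189 to 4873 CPM in WT day 2. In the WT day 5 libraries it was 2759, 2764, 2745, 2907 and 7035 CPM, beside 9805 to 12096 CPM in Abcb10-null day 5. For the targets, WT day 5 replicate 5 lay well above the other libraries of its group. Abcb10-null day 2 replicate 2 was the lowest of its group, and replicate 5 lay nearer to it than to the others. The composite element was in the windows of 9 of the 26 targets that had one (34.6%).

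Of the 5 genes listed as targets of CHOP, 2 were higher at day 5 and 0 lower, *Ppp1r15a*, a subunit of an eIF2 phosphatase, at 0.61 (standard error 0.14, adjusted p = 0.00528) and *Ero1l*, an oxidase of the ER, at 1.29 (standard error 0.14, adjusted p = 2.69e-05) by edgeR, beside 19.8% higher of all genes tested. The cell death genes *Bbc3* (-0.02), *Bcl2l11* (-0.37) and *Tnfrsf10b* (-0.28) were not called. At day 2, *Bbc3* was the 1 called, higher at 0.93 (standard error 0.24, adjusted p = 0.012) by edgeR, and 2 were called without Abcb10-null replicate 2. At day 0 *Ppp1r15a* was the 1 called, lower at -0.51. The difference between the lists was not tested.

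Of 6 genes upstream of ATF4, those of the eIF2 kinases, an eIF2 subunit and a phosphatase subunit, 3 were lower at day 5 and 0 higher: *Eif2ak1*, the heme-regulated kinase HRI, at -1.02 (standard error 0.30, adjusted p = 0.0164), *Eif2ak2*, the double-stranded RNA kinase PKR, at -0.56, and *Ppp1r15b*, a phosphatase subunit, at -0.56 by edgeR. *Eif2ak4*, the amino acid sensor GCN2, was at -0.02 (standard error 0.11, adjusted p = 0.921), *Eif2ak3*, the ER kinase PERK, at -0.07 and *Eif2s1*, the subunit that is phosphorylated, at -0.03, none called. Of all genes tested at day 5, 17.8% were lower and 19.8% higher. At day 2, *Eif2ak1* (-1.05) and *Eif2ak3* (-0.42) were called lower and *Eif2s1* (0.44) was called higher. All genes then had 16.9% lower and 14.9% higher. *Eif2ak2* was higher in Abcb10-null cells at day 0, at 1.34 (standard error 0.068, adjusted p = 1.81e-11). *Eif2ak1* was the 1 called lower before DMSO, at -0.32. Fits that each left out 1 library gave 0 to 2 lower before DMSO. At day 2 they gave 1 or 2 lower and 0 or 1 higher. Transcript levels do not measure the activity of a kinase.

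Of 14 ER chaperones that the ATF6 and XBP1 branches of the ER stress response control, 9 were lower and 0 higher at day 0. At day 2, 3 were lower and 1 higher, and at day 5, 7 were higher and 1 lower (median log2 fold change 0.39). Shares of all genes tested were 16.2% lower and 19.7% higher at day 0 and 16.9% lower and 14.9% higher at day 2. The day 2 counts were close to those shares. At day 5 the shares were 17.8% lower and 19.8% higher. *Herpud1*, which ATF4 also raises, was highest at 2.43, *Dnajb9* was at 1.27, *Edem1* was the 1 lower at -0.40, and *Hspa5*, the main ER chaperone BiP, was at 0.76 (standard error 0.20, adjusted p = 0.0105) by edgeR. Without WT replicate 5 there were 10 higher at day 5, and without Abcb10-null replicate 2 there were 6 lower and 2 higher at day 2. In the fit of all 30 libraries 4 were lower at day 0. Among other bZIP genes, 4 of the 19 tested were higher at day 5 and 2 lower, beside 19.8% higher and 17.8% lower of all genes: *Jun* was at 2.51, *Nfe2l1* at 1.05, *Batf* at 0.97, *Nfe2*, the erythroid bZIP factor, at -1.01 and *Nfe2l2*, the oxidative stress factor NRF2, at -0.71.

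**Figure D5:**
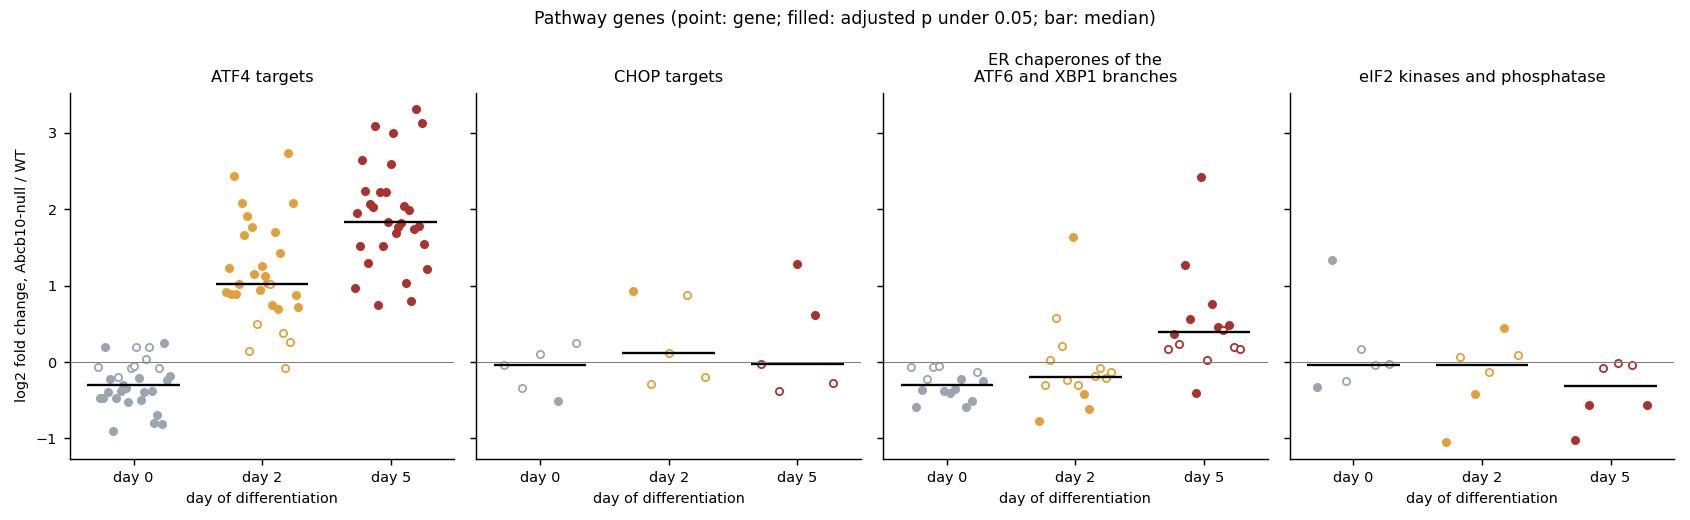
Genotype difference (log2 fold change, Abcb10-null over WT) at days 0, 2 and 5 for the tested genes of 4 pathway lists. Each point is a gene, filled where the edgeR adjusted p was under 0.05, and bars are medians. All 29 tested targets of ATF4 are called higher at day 5, while 2 of 5 targets of CHOP and 0 of 6 eIF2 kinase and phosphatase genes are.

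*Atf3* and *Ddit4* are also known to respond to growth factor, hypoxia and glucocorticoid signals, and genes of those signals were counted beside them. Of 11 immediate-early genes tested at day 5, 3 were higher (*Nr4a1* at 1.42, *Ier2* at 1.02 and *Dusp5* at 0.86) and 2 lower (*Btg2* at -1.19 and *Nr4a2* at -0.87), close to the same shares of all genes. Of 10 hypoxia genes, which share *Ddit4* as a target of their pathway, 1 was higher (*Pfkfb3* at 0.60) and 1 lower (*P4ha1* at -0.75) at day 5. Leaving out WT replicate 5 gave 3 lower, and of the 10 fits that each left out 1 library, 7 lost the higher call and 8 had 0 lower. At day 0, where *Ddit4* was higher, 5 of 11 were higher and 1 lower, beside 19.7% higher and 16.2% lower of all genes tested. In the fit of all 30 libraries 1 was higher and 0 lower. At day 2, 0 of 11 were higher and 2 lower. Of 4 glucocorticoid genes tested at day 5, *Tsc22d3* at 0.84 (standard error 0.14, adjusted p = 0.000475) and *Sgk1* at 0.58 were higher by edgeR. Of 5 tested at day 0, 2 were higher and 0 lower, and of 5 at day 2, 2 were higher and 1 lower. Erythroid markers went the other way: 17 of 19 were lower in Abcb10-null cells at day 5 and 0 higher, with *Slc4a1*, the anion exchanger of the red cell membrane, at -3.13, *Tfrc*, the transferrin receptor, at -3.09 and *Rhd* at -2.40. Of the macrophage and granulocyte markers 3 of 12 were tested at day 5 and 1, *Lyz2*, was higher, at a mean of 1.37 CPM in Abcb10-null cells. At day 0, 3 of the 4 tested were higher in Abcb10-null cells and 0 lower, beside 19.7% higher of all genes tested. With at least 10 counts required in every library, or with all 30 libraries in one fit, 0 were called higher at day 0. None of 8 lymphocyte markers was high enough to be tested, and of 8 fibroblast and endothelial markers 1 was tested at day 5 and 0 were called. Beyond the within-group relation of *Atf4* to the erythroid mean, the part of any of these lists in the levels of the 10 genes was not tested.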

How the data were processed

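Per the labels and the study's methods, ribosomal and globin RNA was depleted, libraries were stranded, and reads were aligned to GRCm38 with STAR 2.6.1b and counted on Ensembl genes with featureCounts 1.6.3. The deposited values are these counts, not normalized. The strand setting was not given in the sources used here. Groups came from the sample labels. Each comparison was fitted on the libraries of its groups with edgeR 4.0.16 (R 4.3.3, TMM, filterByExpr, glmQLFit and glmQLFTest, Benjamini-Hochberg over all genes tested), and all 10 genes passed the filter in each. CPM used TMM factors over all 30 libraries. Where no culture is named, p-values measure the spread between libraries, which may be technical. Every chi-square over degrees of freedom between replicates was at least 6.23, so none was a duplicate. The 10 genes and the lists were chosen with earlier results of these data known. From each list the text names the 3 genes called higher and the 3 called lower at day 5 with the largest changes, and members of the short lists, with *Asns* chosen after its values were seen. 1 listed erythroid gene, *Ahsp*, was not matched. Alternatives were DESeq2 1.42.0, its size factors, 2 filters, a fit of all 30 libraries, leaving out 6140 globin, mitochondrial and small RNA genes, a replicate block, and each library left out. Code was tested on simulated data. Protein sequences were not used here.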

Additional observations from a re-analysis of the deposited data

Results flagged for a closer look

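Of 60 groups of 5 libraries (10 genes in 6 groups), 10 had a library whose gap to its nearest neighbor was over 0.71 of the group's range. For a single group of normal values chance gives about 1 in 20. The measure was applied to CPM, and the genes share libraries, so the 60 groups are not independent and the count is a description. WT day 5 replicate 5 was that library for *Atf4* (416 CPM), *Ddit3* (321 CPM), *Atf5* (52.2 CPM), *Cebpb* (66.6 CPM), *Cebpg* (193 CPM), *Trib3* (429.7 CPM), *Nupr1* (179 CPM) and *Chac1* (18.2 CPM). The other flags were *Atf5* in Abcb10-null day 5 replicate 5 (58.9 CPM) and *Trib3* in WT day 0 replicate 1 (73.0 CPM). Abcb10-null day 2 replicate 2 was not flagged for any gene by this measure.

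The change from day 0 differed between the genotypes (edgeR interaction test, 20 libraries) for 9 genes at day 2, on the log2 scale by 1.52 for *Atf4*, 3.18 for *Ddit3*, 3.80 for *Atf3*, 0.87 for *Atf5*, 1.43 for *Cebpb*, 1.66 for *Cebpg*, 4.55 for *Trib3*, 2.71 for *Nupr1* and 3.57 for *Chac1*. It differed for all 10 at day 5, by 1.92 for *Atf4*, 2.16 for *Ddit3*, 2.82 for *Atf3*, 1.88 for *Atf5*, 2.15 for *Cebpb*, 1.55 for *Cebpg*, 3.67 for *Trib3*, 2.73 for *Nupr1*, 4.56 for *Chac1* and 1.01 for *Ddit4*.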

How the results depend on the processing

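Over the 10 genes and 9 comparisons, 624 values were recomputed under the 7 other settings: 586 kept direction and side of the threshold, 19 lost the threshold, 18 passed it, and 1 changed sign. In a single fit of all 30 libraries, 1 gene was called at day 0 between genotypes and 1 in WT cells at day 2 against day 0, and the cause was not tested. That fit called 1584 of all genes at day 0, beside 4642 in the fit of the 10 libraries. In WT cells at day 5 against day 0, 8 genes were called with all genes of at least 1 count, 5 with a replicate block, and 3 to 6 with 1 library left out. There *Trib3* was at -0.68 with the replicate block and from -1.31 to 1.03 with 1 library left out, and *Ddit3* from -0.044 to 0.97. The *Ddit4* interaction at day 2, not called, ran from -0.066 to 0.21. The count of *Atf4* relations was 2 without the 2 farthest libraries. The relation of *Atf4* to the library total was -0.16 without those 2, -0.085 without WT day 5, and -0.059 to 0.18 with 1 library left out. Its relation to the erythroid mean was -0.70 without Abcb10-null day 2 (adjusted permutation p = 0.00055), 0.11 without WT day 5, 0.015 with the replicate block, and -0.54 to 0.079 with 1 library left out. The block moved no other count over the 10 genes by over 1.5 times. Among the lists it moved 6 small counts by 2 times or to 0: ATF4 targets higher at day 0 from 2 to 1, upstream eIF2 genes lower at day 2 from 2 to 1, bZIP genes higher at day 2 from 2 to 1, hypoxia genes lower at day 2 from 2 to 4 and higher at day 5 from 1 to 0, and immediate-early genes lower at day 5 from 2 to 1. Same-numbered libraries did not deviate together (r from -0.34 to 0.50 over 75 pairs, 10 over 0.1, 15 best with their own number). DESeq2 gave no adjusted p for 6 values, among them *Atf5* between genotypes at day 5.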
